A study of Bos taurus with 40 samples.

Results

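Hepatic transcript abundance of the growth hormone receptor gene *GHR* and of the insulin-like growth factor genes *IGF1* and *IGF2* was examined in liver RNAseq of Holstein Friesian bulls. These 3 genes were taken from the read count files by identifier, *GHR* as ENSBTAG00000001335, *IGF1* as ENSBTAG00000011082 and *IGF2* as ENSBTAG00000013066, and are 3 of the 24616 Ensembl genes in those files. The rule used the identifiers and no threshold on a measured value, although earlier results of these data were known when the genes were chosen. The 40 animals fell into 4 groups of 10, named Control and Restricted at TP1 and TP2 in the sample titles and RES and ADLIB here. RES bulls at the end of Period 1 had received a restricted allowance for 125 days, set for a gain of 0.6 kg/day. RES bulls at the end of Period 2 had been through the same restriction and then 55 days of unrestricted feeding, during which compensatory growth (CG) took place. ADLIB bulls were fed without restriction up to the same 2 time points. All bulls had been blocked on weight, age, sire and earlier gain before allocation, and ate the same ration of 70% concentrate and 30% grass silage in different amounts. According to the methods, different animals were slaughtered at each time point, whereas the sample labels speak of biopsies of the same bulls. Animals of the 2 time points were treated as different in the main fits. Libraries held between 8656866 and 15520237 reads on genes. The defining marker genes of liver cell types were not checked, since the files hold identifiers without gene names.

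Growth hormone from the pituitary acts on the liver through GHR, a cytokine receptor whose associated kinase JAK2 activates the transcription factor STAT5B, and *IGF1* is a main target of this signal. The liver is the principal source of the IGF1 that circulates, and IGF1 promotes growth of muscle and bone and restrains growth hormone secretion. *IGF2* encodes a related growth factor that is expressed in adult liver in cattle and depends much less on growth hormone. Undernutrition is known to leave the liver resistant to growth hormone, with circulating growth hormone high while IGF1 is low.

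At the end of dietary restriction, *GHR* and *IGF1* transcripts were both lower in RES than in ADLIB liver, and *IGF2* transcripts did not differ detectably. The level of *GHR* in RES was 0.497 times that of ADLIB (95% interval 0.399 to 0.618), and that of *IGF1* was 0.370 times (0.267 to 0.514). In Period 2, none of these genes passed the thresholds between the diets. Levels are given below as CPM, read counts scaled to a common library size after TMM normalisation over all animals, which allows comparison of a gene between animals but not of a gene with another gene.

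**Figure D1:**
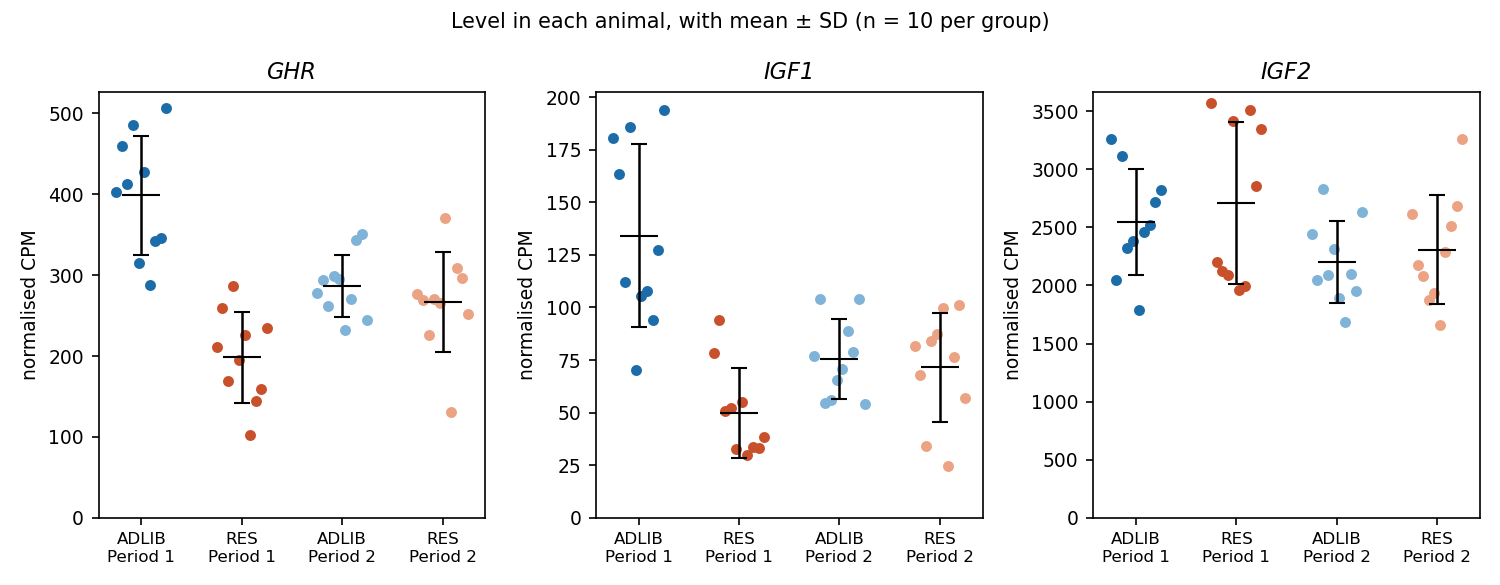
Level of GHR, IGF1 and IGF2 in each animal (y axis, normalised CPM from 0), with 1 point per animal, animals of a group in order of replicate number, and black bars for the group mean ± SD (n = 10). On this scale the RES Period 1 animals lie below every ADLIB Period 1 animal for GHR, with almost no gap between the groups. The IGF1 groups of Period 1 overlap in a few animals, and the IGF2 groups overlap throughout.

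*GHR*, the receptor gene, had 288 CPM in the lowest ADLIB animal of Period 1, a median of 408 and 506 in the highest. In RES animals of Period 1 the lowest value was 103 CPM, the median 203 and the highest 287. On this scale all 10 RES animals therefore lay below all 10 ADLIB animals, but narrowly. The highest RES animal, replicate 4, had 287.2 CPM and the lowest ADLIB animal, replicate 7, had 287.6. With a margin this small, the order of these 2 animals depends on the scaling used. Of the 11868 genes that reached 4 reads in each of the 40 animals, 0.32% had RES below ADLIB in Period 1 with no overlap. The means were 199 ± 56.3 CPM in RES and 399 ± 73.96 in ADLIB (SD, n = 10). The log2 fold change of *GHR* was -1.01 (SE 0.15) with an FDR of 1.79e-04 in edgeR's quasi-likelihood test, which ranked it 54 of 12047 genes by p-value. A gene was called when its FDR was under 0.05 and its fold change passed the minimum stated with the processing, and genes called lower in RES made up 5.23% of those tested. Since these are whole pieces of liver, fewer hepatocytes and less *GHR* RNA per hepatocyte cannot be told apart.

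*IGF1*, the ligand that growth hormone induces, had 70.4 CPM in the lowest ADLIB animal of Period 1, a median of 120 and 194 in the highest. In RES the lowest animal had 29.8 CPM, the median was 44.6 and the highest animal had 94.0. Of the RES animals 8 lay below the lowest ADLIB animal, and all 10 lay below the ADLIB median. The RES animals within the ADLIB range were replicates 1 and 2, at 78.4 and 94.05 CPM. ADLIB replicate 5, at 70.4 CPM, was the ADLIB animal below the highest RES animal. ADLIB replicate 8, at 94.09 CPM, lay above it by a margin that another scaling could change. The means were 49.8 ± 21.5 CPM in RES and 134 ± 43.5 in ADLIB. The log2 fold change of *IGF1* was -1.43 (SE 0.23) with an FDR of 3.94e-04 in the quasi-likelihood test, and only 0.232% of the genes tested had a more negative value.

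*IGF2*, the second ligand, ranged from 1785 to 3262 CPM in ADLIB animals of Period 1 with a median of 2490, and from 1964 to 3570 in RES animals with a median of 2528. Both groups covered much the same range, and 4 RES animals exceeded the highest ADLIB animal. The RES values fell into 5 animals at or below 2203 CPM and 5 at or above 2854, with none in between. The log2 fold change of *IGF2* in Period 1 was 0.08 (SE 0.14, FDR = 0.739 in the quasi-likelihood test). Its 95% interval, from -0.21 to 0.37, includes no change as well as a level 1.30 times that of ADLIB.

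The lower *GHR* and *IGF1* levels were also seen between animals whose library names open with the same number. What this number stands for is not stated. For *GHR* the mean log2 CPM in RES minus that in ADLIB was -1.02 among libraries numbered 1, -1.73 among those numbered 3 and -0.91 among those numbered 4. For *IGF1* these differences were -1.05, -1.81 and -1.81. For *IGF2* they were -0.11, 0.30 and 0.23, so the sign was not shared. Each difference rests on 2 to 4 animals per diet, and number 2 was found in RES alone in Period 1.

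The percentage of reads counted on genes also moved with diet in Period 1, with 75.8 ± 1.79 in RES and 78.1 ± 1.07 in ADLIB (SD, n = 10). When the fit included this percentage the log2 fold change was -0.82 for *GHR* (FDR = 0.0281 in the quasi-likelihood test) and -1.37 for *IGF1* (FDR = 0.0180), and both remained past the thresholds. Within groups, the correlation between *GHR* and this percentage was 0.34 in RES and 0.26 in ADLIB in Period 1, and for *IGF1* it was 0.15 and -0.25 (Pearson r, n = 10 animals each, as a description).

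At day 55 of Period 2, levels of each of these genes overlapped between RES and ADLIB. *GHR* had 131 CPM in the lowest RES animal, a median of 270 and 370 in the highest, against 232, 286 and 350 in ADLIB. *IGF1* had 24.8 CPM in the lowest RES animal, a median of 79.1 and 101 in the highest, against 54.1, 73.99 and 104 in ADLIB. The same RES animal, replicate 7, was lowest for both genes, and the next lowest RES animal had 226 CPM of *GHR* and 34.1 CPM of *IGF1*, replicate 3 in each case. *IGF2* had 1659 CPM in the lowest RES animal, a median of 2231 and 3263 in the highest, against 1687, 2096 and 2832 in ADLIB.

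In the quasi-likelihood test for Period 2, *GHR* in RES was 0.939 times the ADLIB level (95% interval 0.782 to 1.13, FDR = 0.795). *IGF1* was 0.957 times the ADLIB level (0.707 to 1.30, FDR = 0.928) and *IGF2* was 1.06 times (0.893 to 1.252, FDR = 0.806). These intervals exclude a difference of the Period 1 size for *GHR* and *IGF1*, and they leave room for smaller ones in either direction. In this comparison 0% of the 12202 genes tested were called, with 1565 at an unadjusted p under 0.05, whereas edgeR's exact test called 53 genes and DESeq2 called 52. Neither of those tests called *GHR*, *IGF1* or *IGF2* in Period 2. Without RES replicate 7 the log2 fold change of Period 2 was -0.01 for *GHR* and 0.04 for *IGF1*, and without RES replicate 3 that of *IGF1* was 0.02, so its sign depended on either animal. The percentage of reads on genes in Period 2 was 77.7 ± 1.55 in RES and 76.6 ± 1.33 in ADLIB (SD, n = 10). Within these groups it had a Pearson r of 0.48 and 0.69 with *IGF2*, as a description, and when the fit included it the log2 fold change of *IGF2* turned from 0.08 to -0.035.

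**Figure D2:**
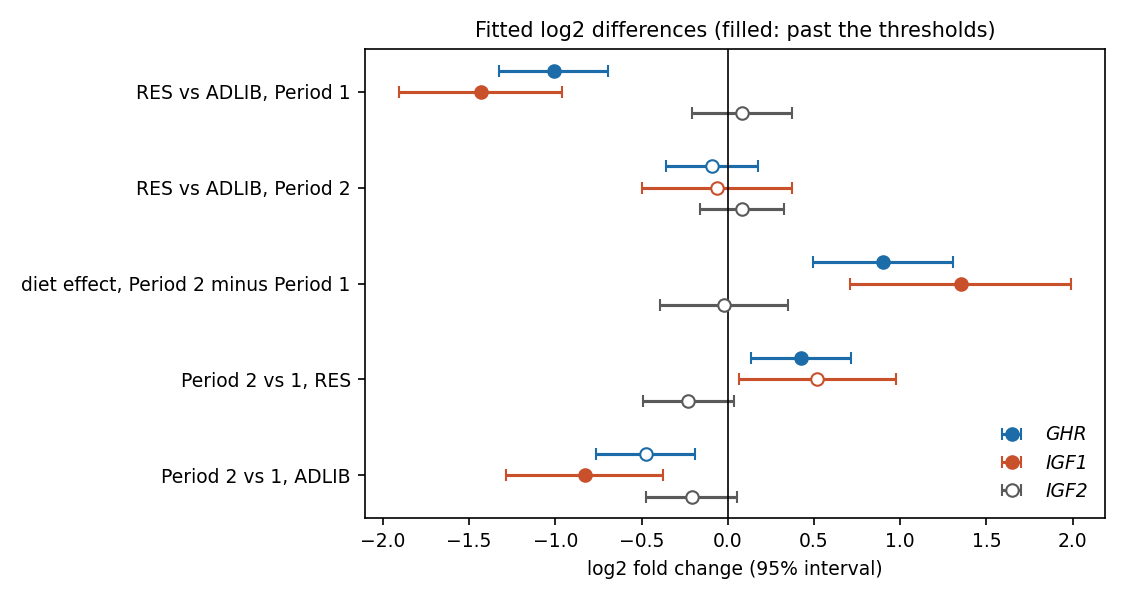
Fitted log2 differences of GHR, IGF1 and IGF2 (x axis, log2 fold change with 95% interval) for each comparison (y axis), with filled points for genes past the thresholds. GHR and IGF1 lie well below 0 for RES against ADLIB in Period 1 and near 0 in Period 2, while the IGF2 intervals include 0 in each comparison.

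The diet effect itself differed between the periods for *GHR* and *IGF1*. In a fit of all 40 animals, the diet effect of Period 2 minus that of Period 1 was 0.90 on the log2 scale for *GHR* (SE 0.20, FDR = 0.00298 in the quasi-likelihood test for the interaction). It was 1.35 for *IGF1* (SE 0.32, FDR = 0.00443) and -0.02 for *IGF2* (SE 0.18, FDR = 0.962). Genes with a larger ratio of RES to ADLIB in Period 2 at an FDR under 0.05 were 3.61% of the 11868 tested. When the fit included the percentage on genes, the interaction of *GHR* was 0.74 and no longer past the threshold (FDR = 0.0557), and that of *IGF1* was 1.402 (FDR = 0.0230).

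This interaction is made up of the change between periods in RES and the change between periods in ADLIB, and both groups moved. In the RES animals *GHR* rose between the end of restriction and day 55 of re-alimentation, by 0.42 on the log2 scale (SE 0.14, FDR = 0.0229 in the quasi-likelihood test). Of the RES animals of Period 2, 9 lay above the Period 1 median of *GHR*, and 3 lay above the highest animal of Period 1. *IGF1* was 0.52 higher on the log2 scale in RES of Period 2 (SE 0.22), which did not pass the FDR threshold (FDR = 0.0773). Between these periods in RES, 10.6% of the genes tested were called higher. The *GHR* rise was 0.36 without RES Period 2 replicate 6 (FDR = 0.0565) and 0.34 when the fit included the percentage on genes (FDR = 0.103). The difference in *IGF1* passed the threshold without RES Period 1 replicate 1 (0.63, FDR = 0.0397) or 2 (0.67, FDR = 0.0188), and without RES Period 2 replicate 3 (0.60, FDR = 0.0393) or 7 (0.62, FDR = 0.0239).

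In the ADLIB animals, whose feeding was not altered, *IGF1* was lower in Period 2 than in Period 1 by 0.83 on the log2 scale (SE 0.22, FDR = 0.0363 in the quasi-likelihood test), a level 0.562 times that of Period 1. All 10 ADLIB animals of Period 2 lay below the Period 1 median of *IGF1*. *GHR* was lower in ADLIB by 0.48 (SE 0.14), just short of the threshold (FDR = 0.0601), and here too all 10 animals of Period 2 lay below the Period 1 median. Genes called lower between periods in ADLIB were 0.607% of those tested. Animals of Period 2 were older and slaughtered later than those of Period 1, and these factors cannot be told apart. Library-name numbers were also unevenly spread over the periods in ADLIB, with number 2 on 0 animals of Period 1 and 5 of Period 2. The *IGF1* value lies near the threshold and crossed it without any of ADLIB Period 1 replicates 1, 2, 4, 9 or 10 or ADLIB Period 2 replicates 3, 5, 6 or 10, where the value ranged from -0.84 to -0.76 and the FDR from 0.0525 to 0.0900. It also missed the threshold with the replicate block (FDR = 0.0503), without a filter on low counts (FDR = 0.0619), when the fit included the percentage on genes (FDR = 0.0896) and with the library-name number as a block (FDR = 0.149), and passed with DESeq2, RLE size factors and scaling by total reads (FDR from 0.0124 to 0.0465). The *GHR* value passed the threshold without ADLIB Period 1 replicate 7, RES Period 1 replicate 7, ADLIB Period 2 replicates 8 or 9, or RES Period 2 replicate 7, with values from -0.52 to -0.48 and FDRs from 0.0349 to 0.0463.

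*IGF2* was lower in Period 2 than in Period 1 in both diets, by 0.23 on the log2 scale in RES (SE 0.13, FDR = 0.184 in the quasi-likelihood test) and by 0.21 in ADLIB (SE 0.13, FDR = 0.412), and neither difference passed the thresholds. When the fit included the percentage on genes, the difference in RES was -0.36 and passed (FDR = 0.0483). In RES, 7 animals of Period 2 lay below the Period 1 median of *IGF2*, and in ADLIB 8 did.

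Ordered by mean level, *GHR* stood at 399 ± 73.96 CPM in ADLIB Period 1, 287 ± 38.4 in ADLIB Period 2, 267 ± 61.3 in RES Period 2 and 199 ± 56.3 in RES Period 1 (SD, n = 10). *IGF1* followed the same order, with 134 ± 43.5, 75.4 ± 18.9, 71.5 ± 25.9 and 49.8 ± 21.5 CPM. The groups of Period 2 are neighbours in the middle of this order and did not differ beyond their spread for either gene. Above them, the step up to ADLIB Period 1 passed the thresholds for *IGF1* and missed them for *GHR*. Below them, the step down to RES Period 1 passed for *GHR* and missed for *IGF1*. *IGF2* had another order, with 2707 ± 696 CPM in RES Period 1, 2543 ± 455 in ADLIB Period 1, 2308 ± 472 in RES Period 2 and 2200 ± 353 in ADLIB Period 2. For *IGF2*, neither the groups of Period 1 nor those of Period 2, which are neighbours in this order, differed beyond their spread, and the middle step was not tested.

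Spread between animals differed among the genes. The SD of log2 CPM of *IGF1* was 0.49 in ADLIB and 0.57 in RES in Period 1, and 0.36 and 0.67 in Period 2. In RES of Period 2 this was larger than the SD of 94.9% of the 11868 genes. *GHR* had an SD of 0.27 in ADLIB and 0.45 in RES in Period 1, and 0.19 and 0.39 in Period 2. Without RES replicate 7 of Period 2 the SD there was 0.20 for *GHR*, close to that of ADLIB, and 0.49 for *IGF1*, a calculation added after seeing the data. The difference in spread was not tested. The fewest reads on any of these genes in an animal were 290, for which counting alone gives an SD of 5.87%.

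Reads of these genes were then set against each other within each animal, which needs no scaling between libraries. The log2 ratio of *IGF1* to *IGF2* reads in Period 1 was -5.83 ± 0.74 in RES and -4.29 ± 0.50 in ADLIB (SD, n = 10). The difference was -1.53 (SE 0.28, permutation test of the diet labels, two-sided, p = 9.00e-05, adjusted over 6 ratios p = 4.20e-04), and all 10 RES animals lay below the ADLIB median. The ratio of *IGF2* to *GHR* was higher in RES by 1.11 on the log2 scale (SE 0.22, permutation test, p = 1.40e-04, adjusted p = 4.20e-04), with 9 of 10 RES animals above the ADLIB median. Since *IGF2* itself did not differ detectably between the diets in Period 1, these ratios restate the lower *IGF1* and *GHR* levels without scaling. They come from the same animals and are not further evidence of a diet effect. The ratio of *IGF1* to *GHR* was lower in RES by 0.42 (SE 0.17, permutation test, p = 0.0271), and did not pass after adjustment over the 6 ratios (adjusted p = 0.0542). Without any of ADLIB replicates 3, 5 and 6 or RES replicates 1, 2 and 3 of Period 1 the adjusted p of that ratio was 0.0492 or less, with differences from -0.49 to -0.45 (permutation test). In Period 2 the differences between the diets were -0.02 for *IGF1* to *GHR*, 0.20 for *IGF2* to *GHR* and -0.22 for *IGF1* to *IGF2*, with adjusted p of 0.508 or more in the permutation test.

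**Figure D3:**
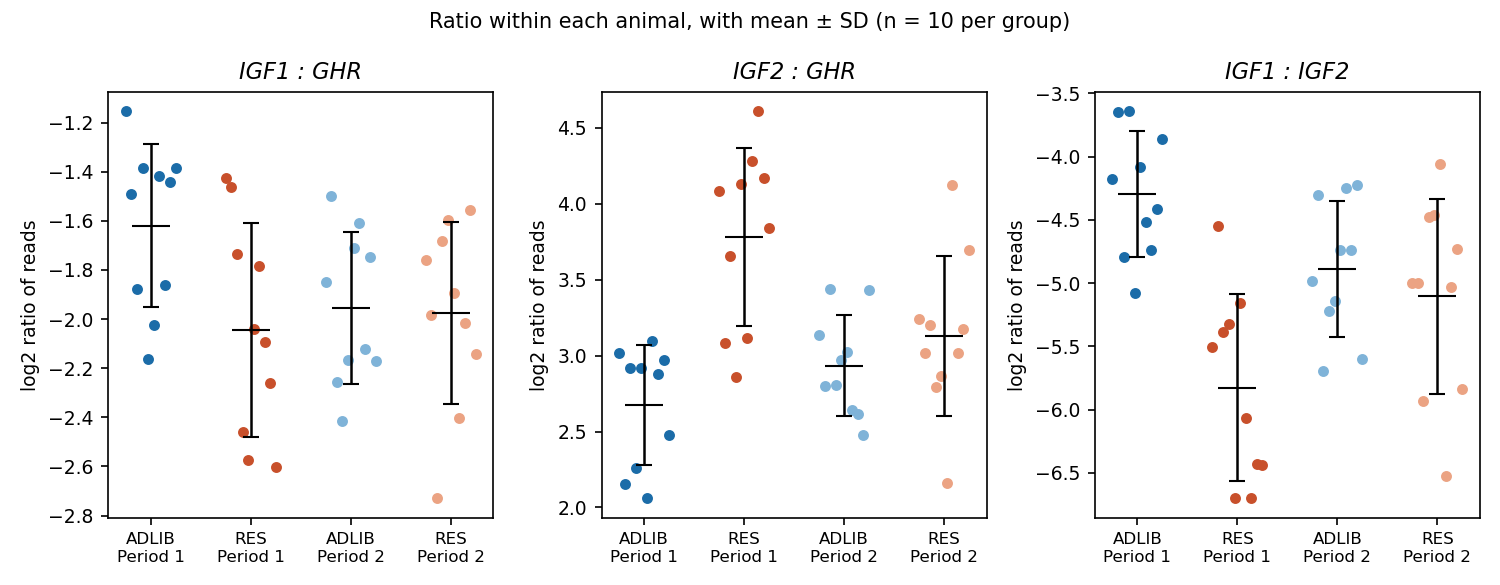
Log2 ratio of reads within each animal (y axis) for IGF1 to GHR, IGF2 to GHR and IGF1 to IGF2, with 1 point per animal and black bars for the group mean ± SD (n = 10). The ratios with IGF2 separate most of the RES animals from the ADLIB animals in Period 1, while the groups of Period 2 lie on each other.

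Across animals, *IGF1* and *GHR* were correlated once differences between groups were removed. After taking the group mean from each animal, *GHR* and *IGF1* had a Pearson r of 0.74 over 40 animals (permutation test within groups, p = 1e-05, the smallest the permutations can give, adjusted over 3 pairs p = 3.00e-05) and a Spearman rho of 0.71 (permutation test, p = 2.00e-05). Without the 2 animals farthest from the *GHR* median, r was 0.65. The correlation was positive in 4 of 4 groups, with a Pearson r of 0.76 in ADLIB and 0.66 in RES in Period 1, and of 0.50 in ADLIB and 0.89 in RES in Period 2. With n = 10 in each group and adjustment over 12 relations, only RES of Period 2 passed by Pearson r (permutation test, adjusted p = 0.00492), and no group passed by Spearman rho (permutation test, lowest adjusted p = 0.0926). In RES of Period 2, replicate 7 was the lowest animal for both genes, and r without the 2 animals farthest from the *GHR* median was 0.82.

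*IGF2* did not share this relation. Within groups its Pearson r was -0.09 with *GHR* (rho -0.17) and -0.15 with *IGF1* (rho -0.17), with permutation p of 0.624 and 0.398 for r and 0.345 and 0.330 for rho over 40 animals. Without the 2 farthest animals these were -0.28 and -0.22. In ADLIB of Period 2 alone, *IGF1* and *IGF2* had an r of -0.66 and a rho of -0.68 (permutation test, p = 0.0407 and 0.0346), which did not pass after adjustment over 12 relations (adjusted p = 0.122 and 0.104), and r was -0.35 without the 2 farthest animals.

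**Figure D4:**
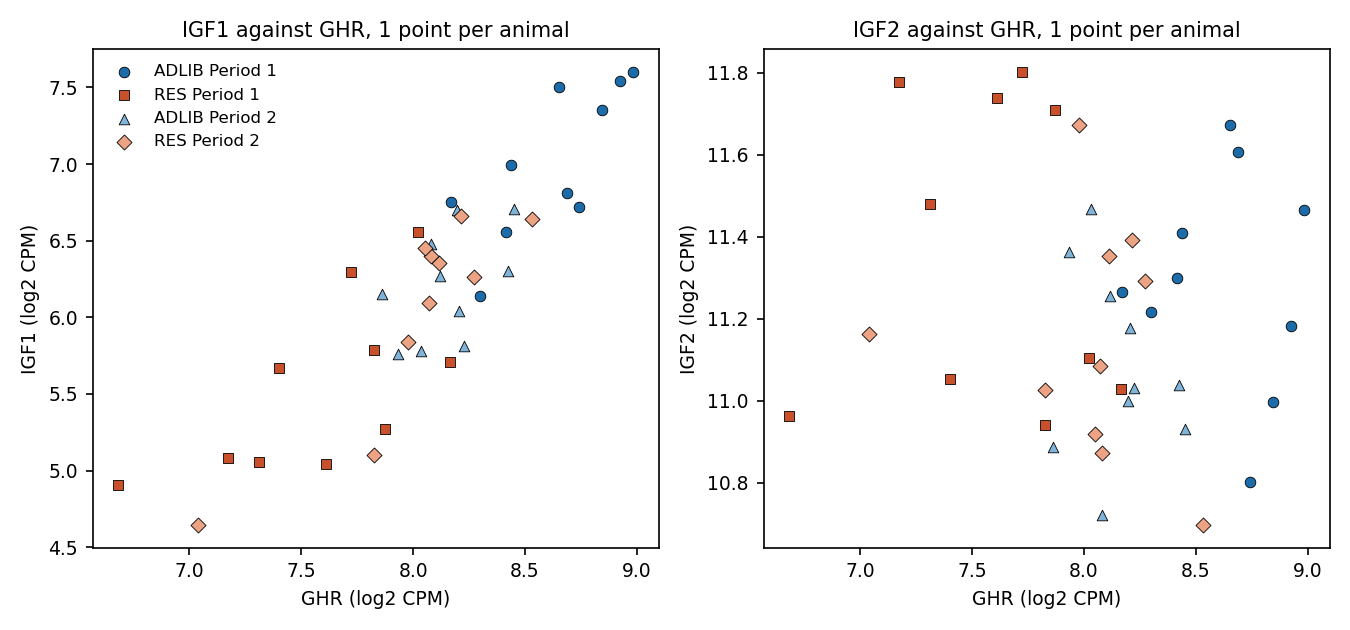
IGF1 (left) and IGF2 (right) against GHR, both axes in log2 CPM, with 1 point per animal and a colour and marker per group. After taking out group means, r with GHR over the 40 animals was 0.74 for IGF1 and -0.09 for IGF2, and by group r for IGF1 ran from 0.50 to 0.89, with RES Period 2 alone passing adjustment by Pearson r.

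The genes whose levels were most like those of *GHR* and *IGF1* over the 40 animals were then sought among the other 11867 genes, by Pearson r of log2 CPM. These values describe patterns that share the same libraries and groups. For *IGF1*, the most alike of all 11867 genes was *GHR*, with r = 0.87, and the next highest r was 0.84. Within groups *GHR* ranked 2 for *IGF1*. For *GHR*, *IGF1* ranked 3, and 39 within groups. For *IGF2*, by contrast, *GHR* ranked 7929 and *IGF1* ranked 8017 of the 11867. The gene most like *GHR* was ENSBTAG00000016359 (r = 0.90), with 47.0 ± 10.6 CPM in ADLIB and 27.1 ± 9.57 in RES in Period 1, and 38.2 ± 4.86 and 33.5 ± 5.61 in Period 2. The most opposite gene to *GHR* was ENSBTAG00000021144 (r = -0.79), with 2.67 ± 1.04 CPM in ADLIB and 4.39 ± 1.55 in RES in Period 1. In Period 2 it had 3.17 ± 0.58 CPM in ADLIB and 4.28 ± 2.25 in RES, so its RES mean hardly moved. The most opposite gene to *IGF1* was ENSBTAG00000015278 (r = -0.71), with 7.14 ± 1.54 CPM in ADLIB and 8.95 ± 1.69 in RES in Period 1. In Period 2 this gene had 8.11 ± 0.81 CPM in ADLIB and 8.23 ± 1.70 in RES. No gene name was paired with these 3 identifiers in the files.

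**Figure D5:**
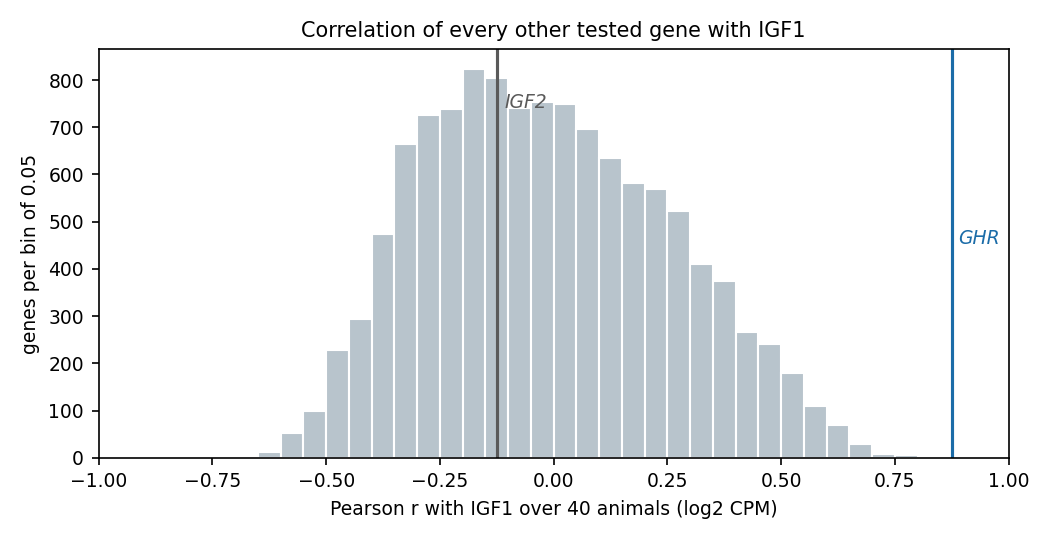
Number of genes (y axis) in each bin of 0.05 of Pearson r with IGF1 over the 40 animals (x axis, log2 CPM), with lines at GHR and IGF2. GHR, at r = 0.87, lies to the right of all other genes, and IGF2, at r = -0.12, lies among the bulk.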

How the data were processed

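Single-end TruSeq libraries from liver of 40 animals were sequenced. TopHat (genome UMD3.1) and HTSeq were used by the authors, who kept reads with a unique position and deposited raw counts for each protein coding gene of Ensembl. A second deposited file of each animal holds normalised signal, which equals these counts times a constant of the animal. This signal entered as an alternative only. HTSeq's rows for reads outside genes (18.9 to 26.3% of counted reads per animal), on overlapping genes (0.470 to 0.754%) and for 92 spike-ins with 0 reads were left out.

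The quasi-likelihood test of edgeR 4.0.16 (R 4.3.3) was applied to the counts (TMM, robust estimation, a minimum of 4 reads in each animal of the fit), for each period on its own 20 animals and for the interaction and period effects on all 40. Benjamini-Hochberg FDR over all genes tested had to be under 0.05, with a fold change of at least 1.25 except in the interaction. Standard errors and 95% intervals come from this test. DESeq2 1.42.0, limma 3.58.1 with a pseudocount of 1 on the normalised values, edgeR's exact test, other filters and scalings, blocks, a covariate and fits without each animal were alternatives. Levels and correlations used TMM CPM over all animals, on the log2 scale with a prior count of 2. Ratios used a pseudocount of 0.5. Permutation tests drew 100000 permutations. The fits of the diet effect in each period and of the interaction were also run on simulated counts, and the outcome is not given here. The period effects were not run on simulated counts. Separate animals are the replicates. Animals of the same group differed by more than sampling noise (lowest chi-square per degree of freedom 19.0).

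The genes, lists and tests were chosen with earlier results of these data known. The named genes are *GHR*, *IGF1* and *IGF2* and, by r over the 40 animals, the most alike and most opposite gene of *GHR* and *IGF1*. Lists of 99 pathway and marker genes were not used here, since 0 identifiers matched the reference table (ARS-UCD2.0), so other genes of the pathway have no values here. In that table a long noncoding RNA gene overlaps *GHR* and another overlaps *IGF1*, and *IGF2* hosts a microRNA. The counting is not stated to use strand, so reads of such overlaps cannot be told apart. Counts sum all transcripts of a gene. Replicate numbers were used as pairs only in the alternatives with a replicate block, since the number marks no stated match. Deviations of same-numbered animals from the group means correlated over 0.1 in 4 of 10 pairs in each period. Their mean r was 0.091 in Period 1 and -0.0040 in Period 2, against -0.010 and 5.2e-04 for animals with other numbers. Between the periods, mean r of same-numbered animals was 0.033 in ADLIB and 0.087 in RES, against -0.0038 and -0.0097.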

Additional observations from a re-analysis of the deposited data

Results flagged for a closer look

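The diet effect of Period 2 minus that of Period 1 was 0.90 on the log2 scale for *GHR* and 1.35 for *IGF1*, and both differences between the periods passed the FDR threshold in edgeR's quasi-likelihood test (FDR = 0.00298 and 0.00443). *GHR* in RES replicate 7 of Period 2 was 131 CPM, against 226 CPM in the next animal, a gap of 0.525 of the range of the group on the log2 scale. This was the only animal that stood apart in 12 sets of *GHR*, *IGF1* and *IGF2* values by group, where chance sets apart an animal in about 1 in 20. The same animal was lowest for *IGF1*, at 24.8 CPM, while its *IGF2*, at 2290 CPM, lay in the middle of the group. Without it the interaction was 0.98 for *GHR* and 1.45 for *IGF1*, and r of *GHR* and *IGF1* within groups was 0.66.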

How the results depend on the processing

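Of 171 values from alternatives other than leaving out an animal, 152 kept their direction and their side of the threshold, as did 673 of 720 values from fits without an animal. Both counts include results that were uncalled in the main fit. The second also includes period effects refitted without an animal of the diet not compared. *IGF1* in ADLIB kept its direction and side in 3 of 8 alternatives. *GHR* and *IGF1* in Period 1 kept both in each of the 12 alternatives run, with log2 fold changes from -1.18 to -0.82 (FDR up to 0.0281) and from -1.57 to -1.34 (FDR up to 0.0180), and without any animal, from -1.08 to -0.93 and from -1.59 to -1.37. Where a value changed, the cause was not tested. At an FDR of 0.0005 the interactions of *GHR* (0.90) and *IGF1* (1.35) were no longer called. The rise of *GHR* in RES (0.42) and the value of *IGF1* in ADLIB (-0.83) also lost their calls there, while *GHR* and *IGF1* in Period 1 stayed called. When the fit included the percentage on genes, the interaction of *GHR* was 0.74, its rise in RES 0.34 and *IGF1* in ADLIB -0.85, none past the threshold, *IGF2* in RES was -0.36 and passed (FDR = 0.0483), and in Period 2 *IGF1* became 0.0014 and *IGF2* -0.035, with the sign turned. With the library-name number as a block *IGF2* in Period 2 was -0.054 and *IGF1* in ADLIB -0.79 (FDR = 0.149), and without a filter the latter was -0.83 (FDR = 0.0619). DESeq2 called *GHR* in ADLIB (-0.47, FDR = 0.0388). Scaling by total reads, which moved the median log2 fold change of all genes in ADLIB from -0.0029 to 0.12, called *IGF1* in RES (0.62, FDR = 0.0346). With the replicate block, *GHR* in ADLIB was called (-0.46, FDR = 0.0393), *IGF1* in ADLIB was not (-0.79, FDR = 0.0503), and the ratio of *IGF1* to *GHR* in Period 1 passed (-0.42, adjusted p = 0.0273, exact sign-flip permutation), with no other call changed. For period effects this block joined same-numbered animals of the periods within a diet, which by the methods are different bulls. For the ratio it joined same-numbered RES and ADLIB animals of the period. Genes called in Period 1 numbered 1243, and 94 at an FDR of 0.0005 and 394 when the fit included the percentage on genes. The interaction called 1121 genes, and 97 and 629 under these settings. In RES, 2746 genes were called and 716 at the lower FDR. In ADLIB, 270 genes were called, 0 at the lower FDR, 73 with the percentage on genes, 58 with the library-name number as a block, 432 by DESeq2 and 801 with scaling by total reads. In Period 2, the 0 genes called became 14 in a fit of all 40 animals and 1 with the library-name number as a block. By medians the *IGF1* to *GHR* ratio of Period 2 was 0.047. Without an animal, values ranged from -0.49 to -0.36 and from -0.072 to 0.062 for the *IGF1* to *GHR* ratio in Period 1 and Period 2, from -0.13 to 0.04 for *IGF1* in Period 2, from -0.088 to 0.047 for the *IGF2* interaction, from 0.35 to 0.50 for *GHR* and 0.46 to 0.67 for *IGF1* in RES, and from -0.52 to -0.43 for *GHR* and -0.90 to -0.76 for *IGF1* in ADLIB.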
